A study of Mus musculus with 8 samples.

Results

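The synaptonemal complex and HORMA axis genes are 9 genes, Sycp1, Sycp2, Sycp3, Syce1, Syce2, Syce3, Tex12, Hormad1 and Hormad2, taken by symbol from a table of 55421 genes, and all 9 passed the filter on low counts. Their transcripts were counted by poly(A) RNA-seq in primary cultures of mouse spermatogonia (SSC culture), with 8 libraries in 4 groups of 2. Stra8KO Veh and Stra8KO NRRA cultures were derived from Stra8-deficient mice, and Spo11KO Veh and Spo11KO NRRA cultures from Spo11-deficient mice. The STRA8 protein is needed to begin meiosis, and SPO11 cuts DNA to make the meiotic breaks. NRRA is medium with restricted nutrients, in which most of the complete medium is replaced by Earle's balanced salt solution, combined with retinoic acid. Veh is vehicle. All cultures had the C57BL/6XDBA/2 background, an F1 hybrid by the methods, came from neonatal testes and were grown on irradiated mouse embryonic fibroblasts. No wild-type library was analysed here. By the study's account sequencing was done on independent biological replicates, and other mice, tissues or cells served for each replicate of an experiment, but which of these separates the libraries of a group is not stated. The p-values measure the spread between these libraries. That spread was small, with a common coefficient of variation of 3.39% between libraries of a group beyond counting noise. A difference between genotypes cannot be told apart from a difference between the cultures derived for each.

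The synaptonemal complex is the protein zipper that holds homologous chromosomes together in meiotic prophase. SYCP2 and SYCP3 form the lateral elements along each chromosome axis, SYCP1 forms the transverse filaments that bridge them, and SYCE1, SYCE2, SYCE3 and TEX12 form the central element in the middle of the bridge. HORMAD1 and HORMAD2 carry a HORMA domain, coat axes that have not yet synapsed and are stripped from them as the complex assembles.

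Library totals ranged from 20960794 to 27038868 counts, and levels are given as CPM, counts per 1e+06 counts of a library after scaling. The targeted gene Stra8 had 0 to 2 counts in Veh and 169 to 170 in NRRA in the Stra8KO libraries, against 12 to 28 and 12604 to 16191 in the others. Spo11 had 31 to 68 counts in the Stra8KO libraries and 72 to 148 in those labelled Spo11KO, which did not check the label, so these cultures are called Spo11KO-labelled. The cultures are labelled spermatogonia, and the summed level of 9 pan-germ markers was 763 to 955 CPM in Stra8KO and 1559 to 1917 CPM in the Spo11KO-labelled cultures. The summed level of 16 fibroblast genes was 28790 to 49590 CPM and 15180 to 25610 CPM in the same order, and no marker of these lists was at 0 in all libraries. Markers of Sertoli cells, macrophages and haploid spermatids summed to at most 51.5, 61.8 and 1.98 CPM in any library.

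Stretches of 250 bases before the annotated start of transcription are shown for the 4 genes with the largest rises in Stra8KO. The sequences are from RefSeq (GRCm38.p6), each read 5′ to 3′ on the strand of its gene. Capitals mark the E-box CACGTG, which basic helix-loop-helix factors can bind, the E2F core TCCCGC or its reverse complement GCGGGA, and the retinoic acid receptor half-site AGGTCA. The first 3 are from Sycp3 (chr10:88459337-88459586, plus strand), Hormad1 (chr3:95559427-95559676, plus strand) and Sycp1 (chr3:102936101-102936350, minus strand). The last is from Sycp2 (chr2:178407659-178407908, minus strand), which rose in both genotypes and holds none of the letters searched.
Sycp3: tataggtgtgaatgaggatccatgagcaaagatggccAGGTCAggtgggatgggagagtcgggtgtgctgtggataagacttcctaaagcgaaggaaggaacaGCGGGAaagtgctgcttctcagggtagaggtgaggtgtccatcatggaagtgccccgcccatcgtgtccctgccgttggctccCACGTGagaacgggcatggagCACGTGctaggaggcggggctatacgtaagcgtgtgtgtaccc
Hormad1: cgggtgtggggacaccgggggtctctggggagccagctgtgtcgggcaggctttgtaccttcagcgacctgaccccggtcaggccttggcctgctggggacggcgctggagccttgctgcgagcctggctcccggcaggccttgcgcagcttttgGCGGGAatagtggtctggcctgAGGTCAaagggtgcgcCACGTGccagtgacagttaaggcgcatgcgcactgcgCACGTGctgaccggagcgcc
Sycp1: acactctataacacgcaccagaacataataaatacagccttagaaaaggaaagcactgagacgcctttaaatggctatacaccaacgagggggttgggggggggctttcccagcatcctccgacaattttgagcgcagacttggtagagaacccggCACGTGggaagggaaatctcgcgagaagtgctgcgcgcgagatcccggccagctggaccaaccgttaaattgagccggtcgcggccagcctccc
Sycp2: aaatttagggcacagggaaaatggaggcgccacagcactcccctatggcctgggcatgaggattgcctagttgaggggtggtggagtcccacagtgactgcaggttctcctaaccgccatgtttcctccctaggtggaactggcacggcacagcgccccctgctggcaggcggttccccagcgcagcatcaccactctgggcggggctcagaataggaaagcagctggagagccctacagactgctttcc

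The search covered 12 windows of 300 bases of the 9 genes, 250 before and 50 after each start, on both strands. The E-box lay in a window of 5 of the 9 genes, namely Sycp1, Sycp3, Syce2, Tex12 and Hormad1, and in a window of 8.09% of the 27025 genes in the RefSeq table. Sycp3 held 2 E-boxes, at -64 and -43 from the start, and Hormad1 held 2, at -57 and -20. The E2F core lay in the same 5 genes and in 22% of all genes. The STRA8 motif CNCCTCAG lay in 4 genes, Sycp1, Syce2, Tex12 and Hormad2, and in 9.12% of all genes. In 1 window of Syce2 it overlapped the E2F core. The half-site AGGTCA lay in Sycp3 and Hormad1 and in 18.1% of all genes, and the cyclic AMP response element TGACGTCA lay in no window of the 9 genes and in 2.03% of all genes. Sycp2, Syce1 and Syce3 held none of the 5 motifs. A match says only that these letters are present in the window. The windows of the 9 genes had a GC content of 54.7% to 69.3%, and the shares over all genes were not matched for it.

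Among the lateral element genes, Sycp3 stood apart. Sycp3 (ENSMUSG00000020059, GRCm38, chromosome 10, 88459569 to 88473236, plus strand, protein coding) was counted 136 and 142 times in the Veh libraries of Stra8KO and 296 and 266 times in its NRRA libraries. The Spo11KO-labelled libraries held 256 and 276 counts with Veh against 1342 and 1474 with NRRA. Its levels were 6.08 and 7.15 CPM with Veh and 14.3 and 12.3 CPM with NRRA in Stra8KO, and 10.8 and 12.01 CPM against 51.8 and 50.3 CPM in the Spo11KO-labelled cultures. The NRRA Spo11KO-labelled libraries were far above all others, and the Stra8KO NRRA and Spo11KO Veh libraries lay next to each other. NRRA raised Sycp3 by 1.01 (log2, SE 0.118, edgeR adjusted p 4.3e-10), or 2.01-fold, in Stra8KO. In the Spo11KO-labelled cultures it raised the gene by 2.16 (log2, SE 0.0853, edgeR adjusted p 4.54e-27), or 4.48-fold.

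Sycp3 overlaps Chpt1, a gene of phospholipid synthesis on the opposite strand, by 660 bases of exon. Between 535 and 660 bases of each annotated Sycp3 transcript, of 927 to 1169, lie in exons of Chpt1. The methods describe a stranded protocol with a Tecan kit while the sample labels name TruSeq and NuGEN kits, and no source states whether the counting used strand, so reads from the shared bases may not be assignable to either gene. Chpt1, examined after the overlap was seen, went from 589 and 565 counts with Veh to 665 and 646 with NRRA in Stra8KO, and from 571 and 610 to 1233 and 1418 in the Spo11KO-labelled cultures. It rose by 0.92 (log2, SE 0.0694, edgeR adjusted p 3.07e-16) under NRRA in the Spo11KO-labelled cultures, and its change in Stra8KO was 0.18 (adjusted p 0.0537). The level of Sycp3 went from 11.4 ± 0.869 to 51.04 ± 1.06 CPM (SD, n = 2) while that of Chpt1 went from 25.3 ± 1.76 to 48.0 ± 0.567 CPM (SD, n = 2). How far reads of the shared bases enter either change was not tested.

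Sycp2 (ENSMUSG00000060445, chromosome 2, 178345293 to 178407685, minus strand), whose product partners SYCP3, went from 19.6 and 21.5 CPM with Veh to 34.3 and 28.7 CPM with NRRA in Stra8KO. With the Spo11KO label it went from 35.2 and 43.9 CPM to 56.6 and 60.2 CPM. The NRRA libraries were above the Veh libraries of their genotype without overlap. Sycp2 rose by 0.62 (log2, SE 0.104, edgeR adjusted p 4.32e-05) in Stra8KO and by 0.57 (SE 0.0847, adjusted p 7.52e-06) in the Spo11KO-labelled cultures.

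Sycp1 (ENSMUSG00000027855, chromosome 3, 102818499 to 102936100, minus strand), the gene of the transverse filament, had the most counts of the 9 genes in every library, from 980 to 3664. It went from 50.5 and 49.4 CPM with Veh to 69.1 and 61.1 CPM with NRRA in Stra8KO, and from 93.3 and 101.8 CPM to 117.4 and 125.0 CPM in the Spo11KO-labelled cultures. The groups did not overlap, and their order was Stra8KO Veh, Stra8KO NRRA, Spo11KO Veh, Spo11KO NRRA. NRRA raised Sycp1 by 0.38 (log2, SE 0.06, edgeR adjusted p 6.64e-07) in Stra8KO and by 0.31 (SE 0.0514, adjusted p 1.09e-06) in the Spo11KO-labelled cultures. A processed pseudogene, Sycp1-ps1, had 0 to 6 counts in any library.

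The 4 central element genes did not move as one. Syce2 (ENSMUSG00000003824, chromosome 8, 84872111 to 84888221, plus strand), whose product assembles with TEX12, went from 22.1 and 25.7 CPM with Veh to 28.3 and 30.5 CPM with NRRA in Stra8KO. The Spo11KO-labelled cultures took it from 47.4 and 43.3 CPM to 62.05 and 61.7 CPM. Syce2 was higher after NRRA in both genotypes without overlap. It rose by 0.30 (log2, SE 0.078, edgeR adjusted p 0.00126) in Stra8KO and by 0.45 (SE 0.0627, adjusted p 3.42e-08) in the Spo11KO-labelled cultures. Without Stra8KO Veh replicate 1 the change in Stra8KO was 0.19 and was not called (adjusted p 0.117, with a range of 0.00049 to 0.85 over its 16 alternatives).

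Syce1 (ENSMUSG00000025480, chromosome 7, 140777229 to 140787852, minus strand), whose product ties the central element to the transverse filaments, was called in neither genotype under NRRA. The Veh and NRRA libraries of Stra8KO stood at 18.5 and 18.98 CPM against 18.4 and 18.3 CPM, and the Spo11KO-labelled ones at 41.4 and 46.95 CPM against 43.6 and 44.8 CPM. The differences were -0.03 (log2, 95% interval -0.20 to 0.15) in Stra8KO and 0.0026 (95% interval -0.13 to 0.13) in the Spo11KO-labelled cultures.

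Syce3 (ENSMUSG00000078938, chromosome 15, 89390174 to 89410503, minus strand), which encodes a small central element protein, and Tex12 (ENSMUSG00000032065, chromosome 9, 50556819 to 50561325, minus strand) had the fewest counts. Syce3 was counted 51 and 57 times with Veh and 47 and 75 times with NRRA in Stra8KO, and 109 and 99 against 172 and 173 times in the Spo11KO-labelled cultures. Tex12 was counted 94 and 95 against 104 and 101 times in Stra8KO, and 171 and 142 against 223 and 295 times in the Spo11KO-labelled cultures. For both genes the Stra8KO NRRA and Veh libraries overlapped in CPM, and the Spo11KO-labelled libraries did not. Syce3 rose by 0.49 (log2, SE 0.167, edgeR adjusted p 0.0123) and Tex12 by 0.48 (SE 0.135, adjusted p 0.00236) in the Spo11KO-labelled cultures. Both calls were lost without Spo11KO Veh replicate 2, at 0.43 and 0.37. That of Syce3 was also lost without Spo11KO NRRA replicate 1, at 0.40, and that of Tex12 without Spo11KO NRRA replicate 2, at 0.34. By the DESeq2 Wald test neither was called, at 0.50 (adjusted p 0.148) for Syce3 and 0.49 (adjusted p 0.057) for Tex12. In Stra8KO the differences were 0.17 (95% interval -0.28 to 0.62) for Syce3 and 0.11 (95% interval -0.23 to 0.45) for Tex12, and neither was called.

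The HORMA genes differed from each other. Hormad1 (ENSMUSG00000028109, chromosome 3, 95559677 to 95587671, plus strand), needed for synapsis and for normal numbers of breaks, went from 4.20 and 4.93 CPM with Veh to 8.5 and 8.03 CPM with NRRA in Stra8KO. In the Spo11KO-labelled cultures it went from 8.46 and 10.5 CPM to 15.5 and 14.5 CPM. Stra8KO NRRA overlapped Spo11KO Veh, and the other groups were apart. Hormad1 rose by 0.86 (log2, SE 0.149, edgeR adjusted p 4.11e-06) in Stra8KO and by 0.66 (SE 0.114, adjusted p 2.56e-06) in the Spo11KO-labelled cultures.

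Hormad2 (ENSMUSG00000020419, chromosome 11, 4345814 to 4441105, minus strand), whose product takes part in the surveillance of unsynapsed axes, stood at 6.22 and 5.89 CPM with Veh and 6.95 and 7.2 CPM with NRRA in Stra8KO. Its levels in the Spo11KO-labelled cultures were 10.7 and 11.4 CPM with Veh and 9.88 and 11.3 CPM with NRRA. The last pair of groups overlapped. The differences under NRRA were 0.22 (log2, 95% interval -0.06 to 0.51) in Stra8KO and -0.06 (95% interval -0.29 to 0.17) in the Spo11KO-labelled cultures, and neither was called.

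**Figure D1:**
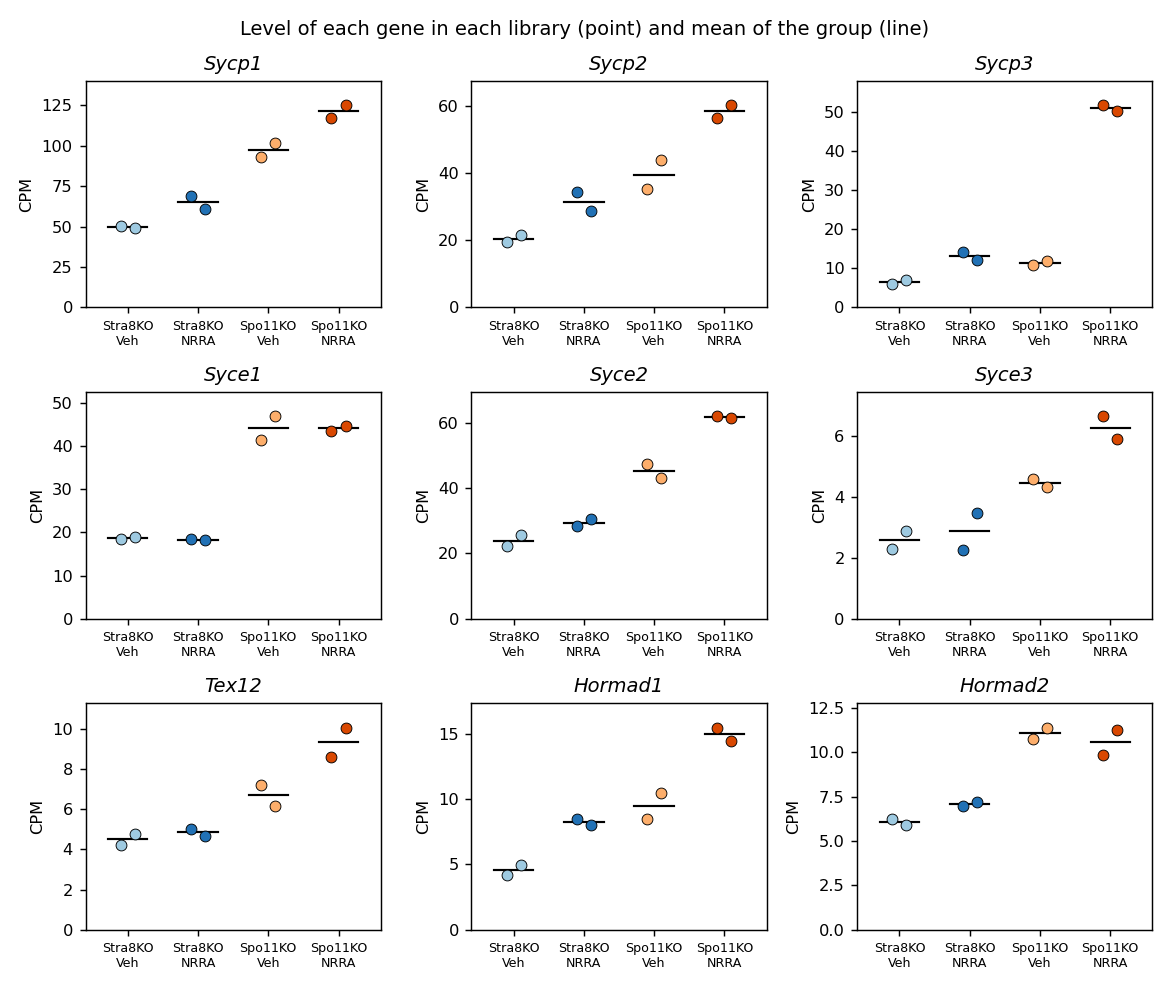
Level of each of the 9 genes in each of the 8 libraries, in CPM after TMM scaling on a linear axis from 0. Points are libraries and lines are means of 2, and Sycp3 is the gene whose Spo11KO NRRA libraries (51.8 and 50.3 CPM) lie farthest above the rest.

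To see which of the genes responded to NRRA in each genotype, NRRA was compared with Veh. In Stra8KO, 5 of the 9 genes were called higher and 0 lower, against 21.6% of 20588 tested genes called higher and 20.2% called lower. These were Sycp3, Hormad1, Sycp2, Sycp1 and Syce2, and the median log2 fold change of the 9 genes was 0.30, against 0.01 over all tested genes. In the Spo11KO-labelled cultures, 7 of 9 were called higher and 0 lower, against 24.5% and 25.5% of all tested genes. Syce3 and Tex12 joined the genes above, and the median of the 9 was 0.48, against 0.01 over all tested genes. The NRRA and Veh libraries did not overlap for 7 of 9 genes in each genotype, against 69.4% of all tested genes in Stra8KO and 71.9% in the Spo11KO-labelled cultures, so that this share of the 9 is near the background.

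The pan-germ markers also moved with NRRA. Of these 9 markers, 7 rose and 0 fell in Stra8KO, against 21.6% and 20.2% of all tested genes. With the Spo11KO label 7 rose and 1 fell, against 24.5% and 25.5%. The markers did not move alike. Dazl, which had the highest level of them (means with Veh of 287 CPM in Stra8KO and 638 CPM in the Spo11KO-labelled cultures), was called in neither genotype (log2 0.09 and -0.03). Piwil2 rose by 0.67 and 0.63 in the same order. The 1 that fell was Nanos3, at -2.44 (log2, SE 0.152, edgeR adjusted p 3.46e-19), which rose by 0.66 in Stra8KO and made up 0.0925% to 1.74% of the pan-germ counts of a library. Their summed level went from 763 and 763 to 955 and 900.5 CPM in Stra8KO and from 1559 and 1596 to 1865 and 1917 CPM in the Spo11KO-labelled cultures. In a bulk sample, a change in the share of germ cells and a change in RNA per germ cell cannot be told apart. Fibroblast genes moved with NRRA too, with 12 of 16 called higher and 3 lower in Stra8KO and 13 higher and 3 lower with the Spo11KO label (medians 0.86 and 0.86), and sums that went from 28790 and 29430 to 49590 and 48770 CPM and from 15180 and 15280 to 25610 and 25000 CPM. Of 8 markers of undifferentiated spermatogonia, 4 rose and 3 fell in Stra8KO (median 0.17), and 0 rose and 8 fell with the Spo11KO label (median -2.35). Their summed level was 535 to 544 CPM in the 4 Stra8KO libraries and went from 1227 and 1209 CPM to 287 and 288 CPM in the Spo11KO-labelled ones. The part of these lists in the changes of the 9 genes was not tested. When the libraries were scaled to the pan-germ counts in place of all counts, 3 of the 9 genes in Stra8KO were called higher and 1 lower, against 11.0% and 44.9% of all tested genes. Sycp3 (0.73), Hormad1 (0.58) and Sycp2 (0.34) remained higher, and Syce1 was lower (log2 -0.31). With the Spo11KO label 4 were called higher and 2 lower, against 12.0% and 44.4% of all tested genes. Sycp3 (1.90), Hormad1 (0.40), Sycp2 (0.30) and Syce2 (0.19) were called higher, and Syce1 (-0.26) and Hormad2 (-0.33) lower. Under this scaling the median of all tested genes was -0.27 in Stra8KO and -0.25 in the Spo11KO-labelled cultures, so that Syce1 and Hormad2 lay near the median gene. Sycp1, Syce3 and Tex12 were not called against the pan-germ counts in either genotype, and Syce2 was not called in Stra8KO.

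**Figure D2:**
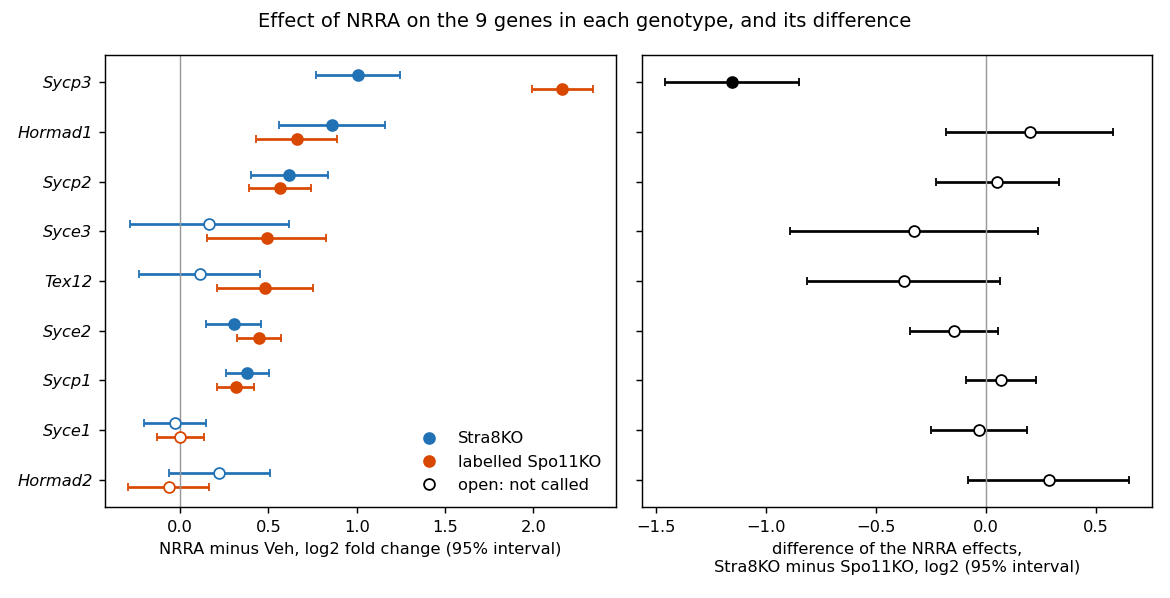
Left, log2 fold change of NRRA against Veh for each gene, in Stra8KO (blue) and in the Spo11KO-labelled cultures (orange), with 95% intervals and open symbols where the change was not called. Right, the difference of the effects (Stra8KO minus Spo11KO), where Sycp3 at -1.15 is the 1 filled symbol.

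The response to NRRA was then compared between the genotypes by the interaction, the log2 change in Stra8KO less the log2 change in the Spo11KO-labelled cultures. Of the 9 genes 0 were called higher and 1 lower, against 14.8% and 10.3% of all tested genes, so that the count called lower is near the background. The called gene was Sycp3, at -1.15 (log2, SE 0.151, edgeR adjusted p 2.55e-08), so that its rise was 2.23-fold smaller in Stra8KO. The interaction of Sycp3 stayed between -1.27 and -1.04 when each of the 8 libraries was left out in turn, and was -1.18 (log2) under pan-germ scaling. Of the 9 pan-germ markers themselves, 2 were called higher and 3 lower by the interaction (median -0.04), so that this scale is not a neutral reference. Chpt1 had an interaction of -0.75 (SE 0.103, adjusted p 8.22e-08).

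For the 8 other genes the interaction was not called, which does not show that they responded alike. The narrowest intervals were those of Sycp1 (0.07, 95% interval -0.09 to 0.23), Syce2 (-0.14, -0.35 to 0.06) and Syce1 (-0.03, -0.25 to 0.19). Sycp2 was at 0.05 (-0.23 to 0.33), Hormad1 at 0.20 (-0.18 to 0.58) and Hormad2 at 0.29 (-0.08 to 0.65). The intervals of Tex12 (-0.37, -0.81 to 0.07) and Syce3 (-0.32, -0.89 to 0.24) were the widest, and that of Syce3 reached into the interval of Sycp3 (-1.46 to -0.85).

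The genotypes were compared within each medium, where genotype cannot be told apart from the cultures derived for it. On the scale of all counts the 9 genes were all lower in Stra8KO than in the Spo11KO-labelled cultures in both media, whereas against the pan-germ counts 7 of 9 changed sign in Veh and 5 of 9 in NRRA. In Veh, 0 of 9 were called higher and 9 lower, against 31.6% and 30.7% of all tested genes, with a median of -0.93. The differences ran from -0.58 for Tex12 (log2, SE 0.159, edgeR adjusted p 0.00146) to -1.24 for Syce1 (SE 0.0762, adjusted p 1.35e-19). In NRRA, 0 were called higher and 9 lower, against 35.0% and 28.9% of all tested genes, with a median of -0.95. Here the differences ran from -0.58 for Hormad2 (SE 0.125, adjusted p 6.43e-05) to -1.94 for Sycp3 (SE 0.0846, adjusted p 2.05e-25). The libraries of the genotypes did not overlap for 9 of 9 genes in either medium, against 79.7% of all tested genes in Veh and 80.8% in NRRA.

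Pan-germ markers were called lower in Stra8KO for 9 of 9 in Veh (median -0.99) and for 8 of 9 in NRRA (median -1.10), where Nanos3 was called higher (2.71, log2, SE 0.15), and of 16 fibroblast genes 16 were called higher there in each medium (medians 0.92 and 0.96). The summed counts of the 9 genes per 1000 pan-germ counts stood at 175 and 185 with Veh and 196 and 194 with NRRA in Stra8KO, and at 166 and 176 against 199.5 and 200.1 in the Spo11KO-labelled cultures. The genotypes lay close together in this measure, and the NRRA libraries of each were above its Veh libraries.

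With the pan-germ counts as library size, 1 of the 9 genes was called higher and 1 lower in Veh, against 78.8% and 1.48% of all tested genes. Syce1 was lower in Stra8KO by 0.19 on the log2 scale (-0.19, SE 0.0818) and Tex12 was higher (0.47, SE 0.164). In NRRA 2 were called higher and 2 lower, against 80.8% and 2.57%, with Sycp3 (-0.92, SE 0.0911) and Syce1 (-0.24, SE 0.0811) lower and Sycp1 (0.13, SE 0.0566) and Hormad2 (0.45, SE 0.129) higher. The medians of all tested genes were 1.05 and 1.09 under this scaling. Sycp3 in NRRA and Syce1 in both media were the differences called with the same sign on both scales.

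**Figure D3:**
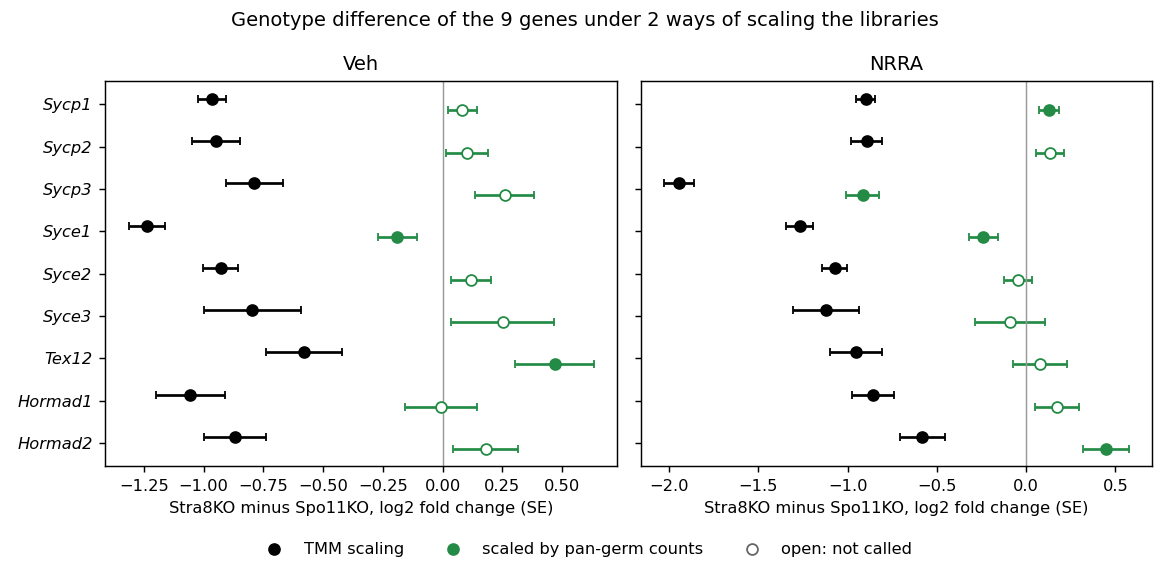
Difference between Stra8KO and the Spo11KO-labelled cultures (log2 fold change, bars are SE) for each gene in Veh and in NRRA, with libraries scaled by TMM (black) or by pan-germ counts (green). Open symbols were not called, and Sycp3 in NRRA lies at -1.94 and -0.92 on the respective scales.

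Ratios within a library do not depend on how libraries are scaled. Counts per kilobase of exon were used to compare genes. For Sycp3 the exon length includes 660 bases shared with Chpt1, and how reads of these bases were counted is not known. The share of Sycp3 in the summed counts per kilobase of the 9 genes went from 8.13% and 8.83% with Veh to 14.1% and 12.5% with NRRA in Stra8KO, and from 7.27% and 7.68% to 23.0% and 22.1% in the Spo11KO-labelled cultures. The share of Syce1 went from 21.4% and 20.3% to 15.8% and 16.1% in Stra8KO, and from 24.2% and 26.0% to 16.8% and 17.0% in the Spo11KO-labelled cultures. Sycp3 thus took a larger share and Syce1 a smaller one in the NRRA libraries of both genotypes.

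Per kilobase, the ratio of Sycp3, of the lateral element, to Sycp1, of the transverse filament, went from 0.339 and 0.408 with Veh to 0.582 and 0.565 with NRRA in Stra8KO, and from 0.325 and 0.332 to 1.24 and 1.13 in the Spo11KO-labelled cultures. The counts of Sycp3 passed those of Sycp1 per kilobase in the Spo11KO NRRA libraries and in no other. How far reads of the bases shared with Chpt1 bear on this crossing was not tested. The ratio of Sycp2 to Sycp1 was 0.225 to 0.259 in the 4 Veh libraries and 0.28 to 0.296 in the 4 NRRA libraries. The ratio of Hormad1 to Hormad2 went from 1.07 and 1.32 to 1.93 and 1.76 in Stra8KO, and from 1.25 and 1.45 to 2.48 and 2.03 in the Spo11KO-labelled cultures. Syce2 per Tex12 ranged from 2.72 to 3.72 over the 8 libraries, with the Veh and NRRA Spo11KO-labelled libraries overlapping.

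**Figure D4:**
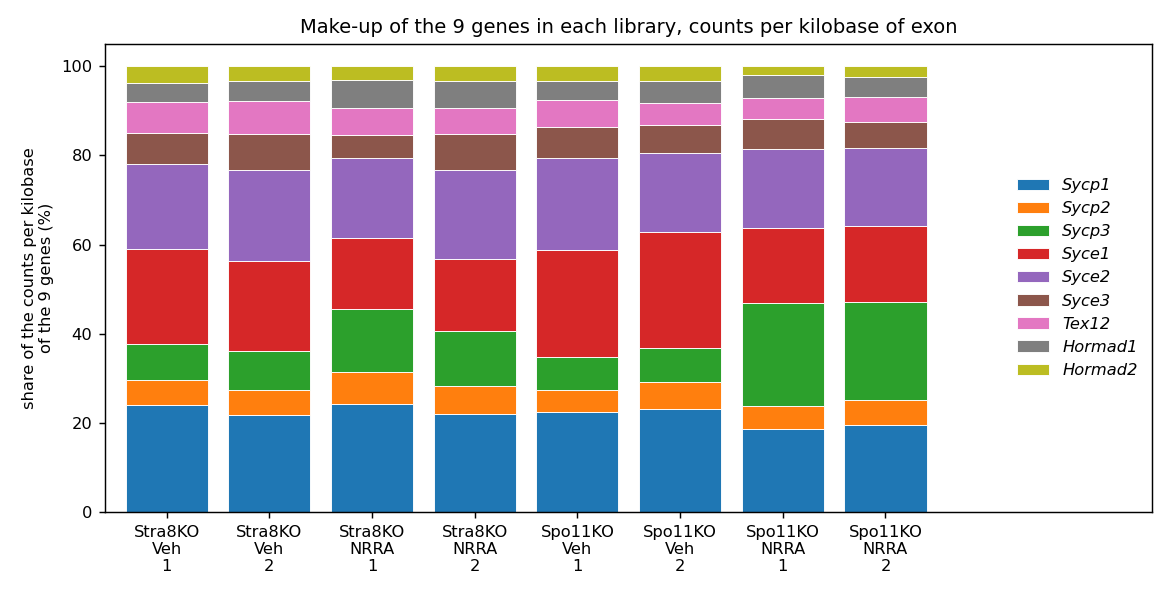
Share (%) of each gene in the summed counts per kilobase of exon of the 9 genes, for each of the 8 libraries. The green segment of Sycp3 takes 23.0% and 22.1% of the bars of Spo11KO NRRA and at most 14.1% of the others.

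Mean levels per kilobase in Stra8KO Veh were highest for Sycp1 (14.04 CPM per kilobase), Syce1 (12.8) and Syce2 (12.2), followed by Sycp3 (5.23), Syce3 (4.66), Tex12 (4.42), Sycp2 (3.44), Hormad1 (2.64) and Hormad2 (2.21). In Spo11KO NRRA the order was Sycp3 (40.4), Sycp1 (34.1), Syce2 (31.4), Syce1 (30.3), Syce3 (11.3), Sycp2 (9.79), Tex12 (9.19), Hormad1 (8.66) and Hormad2 (3.87). Hormad2 was last in both. The exon lengths behind these levels merge all annotated transcripts of a gene, so that the level of a gene read mostly as a shorter transcript is understated. The place of Sycp3 also rests on how reads of the bases shared with Chpt1 were counted, which is not known.

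As a description of patterns over the 4 group means, each centred on its own mean, the members nearest to each other were Sycp1 and Syce2, with a root-mean-square difference of 0.0649 (log2 CPM). Sycp3 had no near member, its closest being Hormad1 at 0.57. Among 12881 candidate genes, the nearest to Sycp3 were Irs4 (0.0609) and Tfcp2l1 (0.0644). The nearest to Sycp2 were Zfp667 (0.0105) and Psma8 (0.0173), which encodes a proteasome subunit of germ cells. The nearest to Syce3 were Boll (0.00837) and Rbm44 (0.0233), and Boll encodes a germ cell RNA-binding protein. With 4 means a close match is easily had.

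Genes that act on the same axes were examined beside the 9. Under NRRA, 21.6% of all tested genes were called higher and 20.2% lower in Stra8KO, and 24.5% and 25.5% with the Spo11KO label. Each list here and below stands beside these shares. Of the cohesin axis, whose rings hold sister chromatids and anchor the lateral elements, 5 genes were tested, with 2 that rose and 1 that fell under NRRA in Stra8KO and 3 that rose and 1 that fell with the Spo11KO label. The median log2 fold changes were -0.10 and 0.74, against 0.01 over all tested genes in each. Rec8, the meiotic kleisin, had 67 and 115 counts in the Veh libraries of Stra8KO and 1143 and 1328 in its NRRA libraries, a rise of 3.76 (log2, SE 0.103, edgeR adjusted p 1.56e-32). It rose by 2.46 (log2, SE 0.08) in the Spo11KO-labelled cultures, with an interaction of 1.30 (SE 0.148, adjusted p 1.1e-09), opposite in sign to that of Sycp3. The mean level of Rec8 went from 4.26 to 58.2 CPM in Stra8KO and from 12.6 to 69.3 CPM in the Spo11KO-labelled cultures. On the scale of all counts Rec8 was called lower in Stra8KO in both media, at -1.55 (log2) with Veh and -0.25 with NRRA. Smc1b, the meiotic SMC subunit, rose by 0.74 (SE 0.0573) in the Spo11KO-labelled cultures and was at -0.10 in Stra8KO, with an interaction of -0.84 (SE 0.0888, adjusted p 1.2e-07). Stag3, the meiotic STAG subunit, rose by 0.84 and 1.14 (log2) in Stra8KO and the Spo11KO-labelled cultures, with an interaction of -0.30 (SE 0.0579, edgeR adjusted p 4.55e-05). Smc3, the SMC subunit shared with mitosis and named after its values were seen, fell by 0.30 and 0.54 in the same order, with an interaction of 0.24 (SE 0.0642, adjusted p 0.0047) that was not called without Spo11KO NRRA replicate 1, at 0.16 (adjusted p 0.0719, with a range of 5.04e-05 to 0.0797 over its 15 alternatives).

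Of 6 genes of the break machinery that docks on the axis, 2 were called higher in Stra8KO and 4 in the Spo11KO-labelled cultures, and 0 were called lower, with medians of 0.20 and 0.40. Mei1 rose by 1.02 (log2) in Stra8KO and by 1.92 in the Spo11KO-labelled cultures, with an interaction of -0.91 (SE 0.24, edgeR adjusted p 0.00308). This interaction was not called without Stra8KO Veh replicate 2, at -0.72 (adjusted p 0.0655, with a range of 0.00102 to 0.0655 over its 15 alternatives). Of 6 telomere attachment genes, 1 rose and 1 fell in Stra8KO, and 3 rose and 0 fell with the Spo11KO label, with medians of 0.30 and 0.74. The counts in Stra8KO are near the shares of all tested genes. Ccdc155, which encodes the telomere protein KASH5, rose by 1.11 (log2, SE 0.144) in the Spo11KO-labelled cultures and by 0.56 (SE 0.211, edgeR adjusted p 0.0288) in Stra8KO, and its interaction was not called (-0.55, adjusted p 0.124). The call in Stra8KO was lost without Stra8KO Veh replicate 2 (0.41) and without Stra8KO NRRA replicate 1 (0.43), with adjusted p from 0.0264 to 0.273 over its 16 alternatives.

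Of 7 crossover factors that load on the complex, 3 were called higher in Stra8KO and 4 in the Spo11KO-labelled cultures, and 0 lower, with medians of 0.31 and 0.35. Hfm1, a crossover helicase, rose by 1.06 and 0.78 (log2) in that order. Tex11 was not called in Stra8KO (0.10) and rose by 0.56 in the Spo11KO-labelled cultures, with an interaction of -0.46 (SE 0.0864, edgeR adjusted p 3.86e-05). Of 6 genes of synapsis surveillance, 1 rose and 2 fell in Stra8KO, and 0 rose and 2 fell with the Spo11KO label, with medians of -0.06 and -0.08. These counts of 6 genes do not stand clear of the shares of all tested genes. Trip13, whose product removes HORMAD1 and HORMAD2 from synapsed axes, fell by 0.42 in Stra8KO and by 0.50 in the Spo11KO-labelled cultures (log2, SE 0.0782 and 0.0647). Topbp1 fell by 0.22 and 0.71 in that order, with an interaction of 0.49 (SE 0.0599, edgeR adjusted p 5.25e-09). Of 4 relatives of the complex, 3 were tested, with 2 called higher in Stra8KO and 1 in the Spo11KO-labelled cultures, with medians of 0.34 and -0.02. Fkbp6, a cochaperone found on the complex, rose by 0.45 and 0.57 (log2) in that order. 4930447C04Rik, also named Six6os1, rose by 0.34 (SE 0.0856, edgeR adjusted p 0.000866) in Stra8KO and was not called in the Spo11KO-labelled cultures (-0.02). Its interaction was 0.37 (SE 0.111, edgeR adjusted p 0.0105), opposite in sign to that of Sycp3, and this call did not hold throughout the alternatives.

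**Figure D5:**
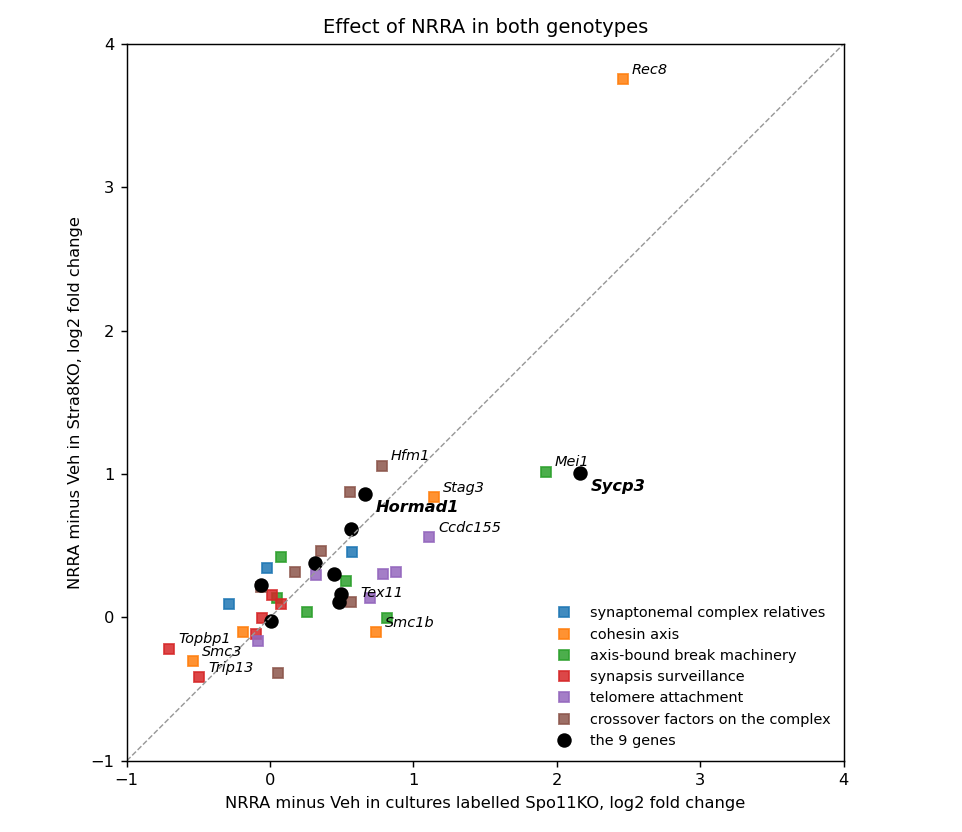
Log2 fold change of NRRA against Veh in Stra8KO (vertical) and in the Spo11KO-labelled cultures (horizontal) for the 9 genes (circles) and the related lists (squares), with a dashed line of equal change. Rec8 (2.46, 3.76) lies above the line and Sycp3 (2.16, 1.01) and Mei1 (1.92, 1.02) lie below it.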

How the data were processed

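The 8 libraries are poly(A) RNA-seq of SSC cultures, 2 per group, grouped by the labelled genotype and treatment. The authors deposited raw whole-number counts per Ensembl gene, not normalised. Per the submitters' processing notes, reads were mapped with STAR 2.6.1c to mm10 and counted with featureCounts 1.6.4. The annotation release, the strand setting and the handling of reads with several matches are not given in the sources used here. Totals were 20960794 to 27038868 counts per library. Intervals cover the spread between libraries only.

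For the tests, edgeR 4.0.16 in R 4.3.3 was used. The filter filterByExpr kept 20588 of 55421 genes, TMM gave the scaling, and all 8 libraries entered a single quasi-likelihood fit (robust) with a mean per group. Each of the 5 contrasts had a two-sided F test, Benjamini-Hochberg adjusted over the tested genes, with calls made at an adjusted p below 0.05. The SE of a log2 fold change is its size over the root of F. CPM is the count per 1e+06 TMM-scaled counts. The fit was also run on counts simulated from its own dispersions, with a small set of genes changed in a single group. That run could not test the scaling or whether replicates were independent. Gene positions and exon lengths are from GENCODE M21 (GRCm38).

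The 9 genes, the related and marker lists, the tests and the alternatives were chosen with earlier results of these data known. All 9 members are named, with Stra8 and Spo11 as targeted genes and at most 2 called genes per list and contrast. Named too are the 2 genes nearest in pattern to a member. Smc3, Nanos3, Dazl, Piwil2 and Chpt1 were named after their values were seen. Smc3 was added so that every related gene with a called interaction is named. Results were recomputed with size factors from DESeq2, with total counts, with pan-germ counts as library size, with other filters, by the DESeq2 1.42.0 Wald test, within the libraries compared, with a replicate block, at stricter thresholds and leaving out each library.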

Additional observations from a re-analysis of the deposited data

Results flagged for a closer look

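The effect of NRRA differed between the genotypes, by the interaction in the edgeR quasi-likelihood fit with adjustment over all tested genes, for Sycp3 (-1.15), Rec8 (1.30), Smc1b (-0.84), Mei1 (-0.91), Mei4 (-0.82), Topbp1 (0.49), Tex11 (-0.46), 4930447C04Rik (0.37), Stag3 (-0.30), Smc3 (0.24) and Chpt1 (-0.75), on the log2 scale as Stra8KO minus Spo11KO. Over all 20588 tested genes this interaction was called higher for 14.8% and lower for 10.3%. A called interaction is thus common, and the list is not a result about the axis genes as a set. Chpt1 was examined after its overlap with Sycp3 was seen, and Smc3 after its values were seen. Adjusted p-values were 2.55e-08 for Sycp3, 1.1e-09 for Rec8, 1.2e-07 for Smc1b, 0.00308 for Mei1, 0.0398 for Mei4, 5.25e-09 for Topbp1, 3.86e-05 for Tex11, 0.0105 for 4930447C04Rik, 4.55e-05 for Stag3, 0.0047 for Smc3 and 8.22e-08 for Chpt1. The adjusted p of Mei4 lay between 0.0109 and 0.282 over its 15 alternatives, that of 4930447C04Rik between 0.00312 and 0.137 and that of Smc3 between 5.04e-05 and 0.0797, so that none of these held throughout. Groups of 2 libraries were not searched for outlying libraries.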

How the results depend on the processing

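The counts of the 9 genes called were within 1.5 times their main value under both other count scalings, both other filters, the DESeq2 Wald test, the fits to the libraries compared and an adjusted p under 0.01, with NRRA labelled Spo11KO at 5 genes by DESeq2, without Syce3 and Tex12, and 6 at the stricter adjusted p. Requiring a change of at least 2-fold left 1 gene in each NRRA comparison, 2 in the genotype difference in Veh and 4 in NRRA. Of all 20588 tested genes it left 1434 higher and 734 lower for NRRA in Stra8KO, and 1402 and 1137 labelled Spo11KO. For the genotype difference it left 1915 higher and 1421 lower in Veh, and 2262 and 1557 in NRRA. A count of 1 of 9 is too small to set apart from these shares. Leaving out each library gave 4 to 5 genes for NRRA in Stra8KO, 5 to 7 for NRRA labelled Spo11KO, 9 to 9 for each genotype difference and 1 to 1 for the interaction. The replicate numbers share only a number (correlations of deviations -0.03 to 0.06), and the replicate block gave 5, 7, 9, 9 and 1 genes in that order, which changed no call of the 9.

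With pan-germ counts as library size, 2 genes were called between genotypes in Veh and 4 in NRRA. Signs turned under this scaling. For the genotype difference in Veh the values were Sycp1 0.0825, Sycp2 0.10, Sycp3 0.26, Syce2 0.12, Syce3 0.25, Tex12 0.47 and Hormad2 0.18. In NRRA they were Sycp1 0.13, Sycp2 0.13, Tex12 0.0778, Hormad1 0.17, Hormad2 0.45 and Chpt1 0.40. For NRRA in Stra8KO they were Syce3 -0.11, Tex12 -0.17, Hormad2 -0.0570, Tex11 -0.18 and Chpt1 -0.10, and labelled Spo11KO Syce1 -0.26 and Rec114 -0.18. The median of all genes moves with this scaling by construction.

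Under the remaining settings, the signs that turned were of values not called in the main fit. Total counts gave Hormad2 0.0283, 4930447C04Rik 0.0689 and Sun1 0.00991 for NRRA labelled Spo11KO and interactions of -0.0266 for Sycp1, -0.0406 for Sycp2 and -0.0153 for Trip13. No filter gave an interaction of -0.00963 for Sycp2 and 0.0251 for 4930447C04Rik labelled Spo11KO, and the filter on average counts gave 0.00264 for Mei4 in Stra8KO. Leaving out each library gave interactions of -0.11 to 0.20 for Sycp2, -0.0222 to 0.15 for Sycp1 and -0.12 to 0.0562 for Syce1, and NRRA effects of -0.18 to 0.44 for Syce3, -0.34 to 0.28 for Mei4 and -0.23 to 0.0203 for Smc1b in Stra8KO and, labelled Spo11KO, of -0.0850 to 0.0833 for Syce1, -0.18 to 0.0163 for Hormad2 and -0.0802 to 0.0242 for 4930447C04Rik. With total counts the calls of all genes were 2188 higher and 3473 lower for the interaction, 6492 and 4033 for NRRA labelled Spo11KO and 5348 and 8183 for the genotype difference in NRRA, against 3051 and 2121, 5038 and 5241, and 7214 and 5956. Counts of Syce3, at 47 to 173 a library, limit what could be detected for it.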
